A study of Mus musculus with 2 samples.

Results

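The genes described here are those of the mouse major histocompatibility complex (MHC) and of the surface molecules by which immune cells recognise hepatocytes. They were chosen by name: the 32 genes in the data whose symbol starts with H2-, and 15 others (B2m, Tap1, Tap2, Tapbp, Psmb8, Psmb9, Psmb10, Nlrc5, Ciita, Cd74, Cd274, Icosl, Raet1d, Raet1e and Cd1d1). Together they are 47 of the 19073 features measured. Their levels were read in fixed single hepatocytes of male heterozygous p16-Tom mice on a C57BL/6 background, which carry p16-CreERT2 and R26-CAG-LSL-tdTomato-WPRE, so that tamoxifen marks cells in which the p16 promoter is active. Both groups came from mice given CCl4 for 4 weeks together with tamoxifen, and differ in the sorted fraction: p16low (Tom-) or p16high (Tom+) hepatocytes. Each fraction gave 1 library, and the ages of the mice and the number of mice in each library are not given in the sources used here. Without replicates every difference below is between these 2 libraries, no test between groups was possible, and the 95% intervals cover counting error only.

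Class I molecules show peptides from inside the cell to CD8 T cells. The heavy chain, coded by H2-K1 or H2-D1, pairs with the light chain B2m. Peptides are cut by the proteasome, in which Psmb8, Psmb9 and Psmb10 can replace the standard catalytic subunits, are pumped into the endoplasmic reticulum by Tap1 and Tap2, and are loaded with the help of tapasin (Tapbp). Nlrc5 is known to switch on class I genes, as Ciita does for the class II genes. Class II molecules show peptides from outside the cell to CD4 T cells. Most professional antigen-presenting cells carry them together with their chaperone, the invariant chain Cd74. Cd1d1 shows lipids to natural killer T cells, Raet1d and Raet1e are ligands of the activating receptor NKG2D of natural killer cells, Cd274 codes PD-L1, an inhibitory ligand of T cells, and Icosl codes the ligand of the costimulatory receptor ICOS. Hepatocytes are known to carry class I and little class II. H2-Ke6 has an H2- symbol for its place in the genome but codes a 17-beta-hydroxysteroid dehydrogenase.

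In the GENCODE annotation of the mm10 build (GRCm38), 37 of the 47 genes lay on chromosome 17, between positions 33915899 and 37483552. H2-K1 lay near the start of this stretch, on the minus strand (chr17:33996017-34000347), and H2-D1 (chr17:35262730-35267499) and the H2-Q genes from H2-Q1 (chr17:35320405-35325099) to H2-Q7 (chr17:35439155-35443773) followed further on, on the plus strand. The other members lay on other chromosomes, among them B2m (chr2:122147686-122153083), Nlrc5 (chr8:94434356-94527272) and Icosl (chr10:78069302-78083913). Many members are copies of one another, and the assay reads each gene through short probe targets. To show how far relatives could share reads, the longest protein-coding transcript of each member was cut into all windows of 50 bases. Each window was looked for in the transcripts of every other gene. Other transcripts of the members were not cut. No window was shared by 17 of the members, among them Icosl, B2m, Nlrc5, Cd74, Psmb8, Psmb9, Psmb10, H2-Ab1, H2-Aa and H2-Eb1, while 15 members shared over 10% of their windows. H2-K1 shared 8.79% of its windows, most often with H2-D1 (6.94%). H2-Q1 shared 22.9%, most often with H2-Q2 (13.9%), and H2-Q7 shared 34.9%, most often with H2-Q6 (19.3%). The annotated spans of Raet1d (chr10:22360552-22374139) and Raet1e (chr10:22158569-22374139) overlap, and 56.4% of the windows of Raet1d were also in Raet1e, so the levels of this pair may hold shared counts. H2-Ke6 shared 62.9% with the readthrough gene Gm20427, and Cd1d1 shared 25.8% with Cd1d2. The levels of these close relatives are uncertain for that reason, and levels of different genes are not comparable in this assay.

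The promoters of 5 members are shown because these genes code the class I heavy chains and the light chain whose levels are set side by side further on. Each sequence is the 190 bases before the RefSeq start site on the strand of the gene (RefSeq, GRCm38.p6), 5′ to 3′. Capitals mark motifs found on either strand: a kB-type motif (GGG, any 2 bases and TTCCC, the kind bound by NF-kB), an X2-type motif (TGACG), a Y-type motif (CCAAT, here often as its reverse complement ATTGG) and an interferon-type motif (GAAA, any 2 bases and GAAA). The X2-type and Y-type motifs belong to the promoter module through which Nlrc5 and Ciita are known to act. No marked motif overlaps another.
H2-K1 (chr17:34000348-34000537, minus strand): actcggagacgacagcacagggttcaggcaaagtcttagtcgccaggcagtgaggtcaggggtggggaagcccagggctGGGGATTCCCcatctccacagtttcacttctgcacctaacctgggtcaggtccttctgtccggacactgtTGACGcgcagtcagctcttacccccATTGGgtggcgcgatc
H2-D1 (chr17:35262904-35263093, plus strand): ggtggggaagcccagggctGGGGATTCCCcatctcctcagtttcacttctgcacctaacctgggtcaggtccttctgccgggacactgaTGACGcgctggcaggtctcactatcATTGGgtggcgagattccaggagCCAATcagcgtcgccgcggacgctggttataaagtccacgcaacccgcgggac
H2-Q6 (chr17:35424660-35424849, plus strand): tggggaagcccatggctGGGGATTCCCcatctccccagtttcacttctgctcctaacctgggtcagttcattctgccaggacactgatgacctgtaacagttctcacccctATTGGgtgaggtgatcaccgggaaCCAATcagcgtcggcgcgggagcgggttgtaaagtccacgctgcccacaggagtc
H2-Q7 (chr17:35438965-35439154, plus strand): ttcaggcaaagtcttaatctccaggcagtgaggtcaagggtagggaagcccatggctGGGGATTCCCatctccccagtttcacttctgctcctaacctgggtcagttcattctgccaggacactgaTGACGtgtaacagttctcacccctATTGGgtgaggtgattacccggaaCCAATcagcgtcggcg
B2m (chr2:122147497-122147686, plus strand): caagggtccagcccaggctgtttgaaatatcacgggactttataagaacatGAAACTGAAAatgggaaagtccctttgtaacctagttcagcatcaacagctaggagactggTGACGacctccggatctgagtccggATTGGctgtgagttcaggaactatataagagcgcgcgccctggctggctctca

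H2-K1, H2-D1, H2-Q6 and H2-Q7 each held the kB-type motif, and B2m held the interferon-type motif. Only the exact patterns given were searched. Sites with other letters or spacing are not marked, so an unmarked window may still hold one. Over the 300 bases around the start site, windows were given for 39 of the 47 members. The kB-type motif was in 7 of these 39 (17.9%) and in 1.75% of all 32851 windows, the X2-type motif in 14 (35.9%) and 20.8%, the Y-type motif in 32 (82.1%) and 37.4%, and the interferon-type motif in 2 (5.13%; B2m and H2-T23) and 3.44%. A match describes the letters of the window and not binding.

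The Tom- library held 23220 barcodes and 681279005 unique molecular identifiers (UMIs, 1 per counted probe pair) and the Tom+ library 16339 barcodes and 715333889 UMIs, with 503 barcodes in both. After filters, 20159 and 13378 cells were left, and after clusters with few genes or with immune, stromal or endothelial markers were set aside, 10964 Tom- and 9979 Tom+ hepatocytes (median 32463 and 35383 UMIs per cell). The label was checked against tdTomato, at 72.7 CPM (the gene's share of all UMIs of the summed cells, on the usual scale) in Tom- and 811 CPM in Tom+ hepatocytes, and against Alb, at 118309 and 108248 CPM. Clusters were named by marker genes as zone 1-like (portal, 5983 Tom- and 2682 Tom+ cells), zone 2-like (1617 and 990) or zone 3-like (around the central vein, 1687 and 4443). The lobule was also divided into 5 ranges of equal cell number by a score of zone 3 minus zone 1 markers, with 4292 of 20943 hepatocytes within 0.1 of a limit between ranges. Markers of Kupffer cells (12 of 12 found) summed to 269 CPM in Tom- and 212 CPM in Tom+ hepatocytes, so both held some RNA of other cells.

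In all hepatocytes, 27 of the 47 members reached 1 CPM in either library and 50 UMIs over both. Of the 20 below, 8 genes of the H2-M group (H2-M1, H2-M9, H2-M11 and H2-M10.2 to H2-M10.6) had no UMI in either library, which allows a level of up to 0.00763 CPM in Tom- and 0.00755 CPM in Tom+ (3 counts over all hepatocytes). The other 12 had at most 294 UMIs in Tom- and 296 in Tom+. Those 2 highest counts were of H2-Aa, a class II chain. H2-K1 was found in 94.8% of Tom- and 98.4% of Tom+ hepatocytes after each cell was thinned to 5000 UMIs, and in 99.97% of both before thinning. B2m was found in 49.4% and 52.0% of the thinned cells.

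The cells set aside from the hepatocytes formed 17 clusters, and in some of them the class II genes were far above hepatocytes. Alb was at 84664 to 157531 CPM in these clusters, so none of them was free of hepatocyte RNA. The highest class II levels were in cluster 4, a cluster led by the macrophage genes Mmp12 and Gpnmb that no marker list named (527 Tom- and 197 Tom+ cells). Its cells were shallow, with medians of 7639 and 7322 UMIs. All 12 Kupffer and all 12 endothelial markers were at least 1.5-fold higher in cluster 4 than in all other cells. They summed to 11740 and 8500 CPM for Kupffer and 951 and 842.5 CPM for endothelial markers. There Cd74 was at 662 CPM (Tom-) and 656 CPM (Tom+), against 14.1 and 17.5 CPM in hepatocytes. H2-Ab1 was at 170 and 153 CPM against 3.22 and 3.11 CPM, and Ciita at 34.5 CPM in both against 0.328 and 0.385 CPM. B-like cluster 6 came next for Ciita, at 16.98 and 14.7 CPM, with Cd74 at 149 and 121 CPM, and held the highest H2-Ob in both libraries (22.9 and 16.2 CPM), a gene whose product restrains the peptide exchanger H2-DM and is known from B cells. Cd74 was higher than in cluster 6 in cluster 16 of both libraries (255 and 133 CPM), an unnamed cluster of 34 and 15 cells led by Lrp2, Upk1b and Bnc1, and in the Tom+ library also in clusters 7 (142 CPM) and 2 (136 CPM). H2-Oa and H2-DMb2 were also highest in cluster 6 among the 17 clusters in both libraries. Cluster 4 was also high in H2-T24 (141 and 124 CPM, against 6.28 and 5.09 CPM in hepatocytes) and H2-M3 (64.6 and 51.9 CPM, against 2.25 and 2.00 CPM), the latter a class I gene that presents formylated peptides.

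Whether the class II signal of hepatocytes was their own expression or RNA of other cells was not tested. Cd74 in hepatocytes was near the level of endothelial-like cluster 3 (14.4 and 16.6 CPM), the lowest of the clusters set aside in the Tom- library, and H2-Ab1 was at 3.22 CPM in hepatocytes and 3.20 CPM in that cluster in the same library. Cluster 3 held much hepatocyte RNA, with Alb at 131340 and 136398 CPM and zone 1 markers at 20634 and 21098 CPM. Its endothelial markers summed to 778 and 705 CPM, against 3764 and 4195 CPM in endothelial-like cluster 13. In hepatocytes there were 4.38 UMIs of Cd74 per UMI of H2-Ab1 in the Tom- library (95% interval 4.12 to 4.66) and 5.63 (5.29 to 5.98) in the Tom+ library. In cluster 4 this ratio was 3.89 (3.62 to 4.17) and 4.30 (3.85 to 4.81). The intervals of hepatocytes and cluster 4 overlap in the Tom- library and do not in the Tom+ library. Other set-aside clusters of the Tom+ library went both ways. Intervals overlapping that of hepatocytes were found, among others, in cluster 5 (5.02, 4.38 to 5.78) and cluster 12 (5.34, 4.48 to 6.39). The intervals of cluster 9 (4.31, 3.91 to 4.75) and cluster 11 (4.33, 3.93 to 4.785) lay below it. When hepatocytes above the median share of other-cell markers were left out, Cd74 in hepatocytes was at 8.44 CPM in Tom- and 11.5 CPM in Tom+.

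For class I and its machinery no single cluster was highest throughout. Cluster 10, led by the interferon-induced genes Rsad2, Ifit3 and Cxcl10 (126 Tom- and 82 Tom+ cells), had the highest Tap1 (150 and 141 CPM, against 34.0 and 30.9 CPM in hepatocytes) and Tapbp (301 and 300 CPM, against 189 and 172 CPM) of the clusters set aside. No marker on the lists of other cells was 1.5-fold higher at 5 CPM in cluster 10. Its Alb, at 112424 and 105147 CPM, was near that of hepatocytes (118309 and 108248 CPM). The cells of cluster 10 may thus be hepatocytes, but they are not in the sums of hepatocytes compared below. Nlrc5 was at 147 and 160 CPM in cluster 10 against 56.3 and 55.2 CPM in hepatocytes, and Cd274 at 35.7 and 42.9 CPM against 1.87 and 2.10 CPM. In the Tom- library cluster 4 was above cluster 10 in Cd274 (54.8 CPM), Psmb8 (101 and 70.1 CPM) and Psmb9 (79.4 and 54.4 CPM). In the Tom+ library Psmb8 was at 74.3 CPM in cluster 4 and 79.6 CPM in cluster 10, and Psmb9 at 55.4 and 64.5 CPM. Cd274 was nearly level there, at 43.4 CPM in cluster 4 and 42.9 CPM in cluster 10. H2-K1 was highest in endothelial-like cluster 13 (1414 and 1460 CPM) and in cluster 4 (1391 and 1366 CPM). Nlrc5 was lowest in cluster 8 (11.6 and 8.35 CPM), a cluster led by Mup17 with H2-K1 at 1256 and 1346 CPM. Cd1d1, at 225 and 200 CPM in hepatocytes, was lowest in cluster 2 (117 and 85.5 CPM), an unnamed cluster with the highest sum of stellate markers, in which H2-D1 was at 135 and 171 CPM against 68.6 and 73.4 CPM. Icosl was below its hepatocyte level (11.5 and 21.3 CPM) in endothelial-like clusters 3 (3.98 and 3.73 CPM) and 13 (3.48 and 4.54 CPM). It was also lower in cluster 8 (2.97 and 3.19 CPM) and, on few counts, in cluster 2 (2.18 and 6.33 CPM, of 917977 and 315896 UMIs in all). In most other clusters of the Tom- library Icosl was near its hepatocyte level. Cluster 3 was rich in zone 1 markers (20634 and 21098 CPM), and in the most portal range of hepatocytes Icosl was at 2.31 and 2.53 CPM. The part of lobule position in the Icosl level of cluster 3 was not tested. The map of levels by cluster shows the contrast between the class II genes, far above hepatocytes in cluster 4, and B2m, Cd1d1 and Tapbp, near the hepatocyte level in most clusters.

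**Figure D1:**
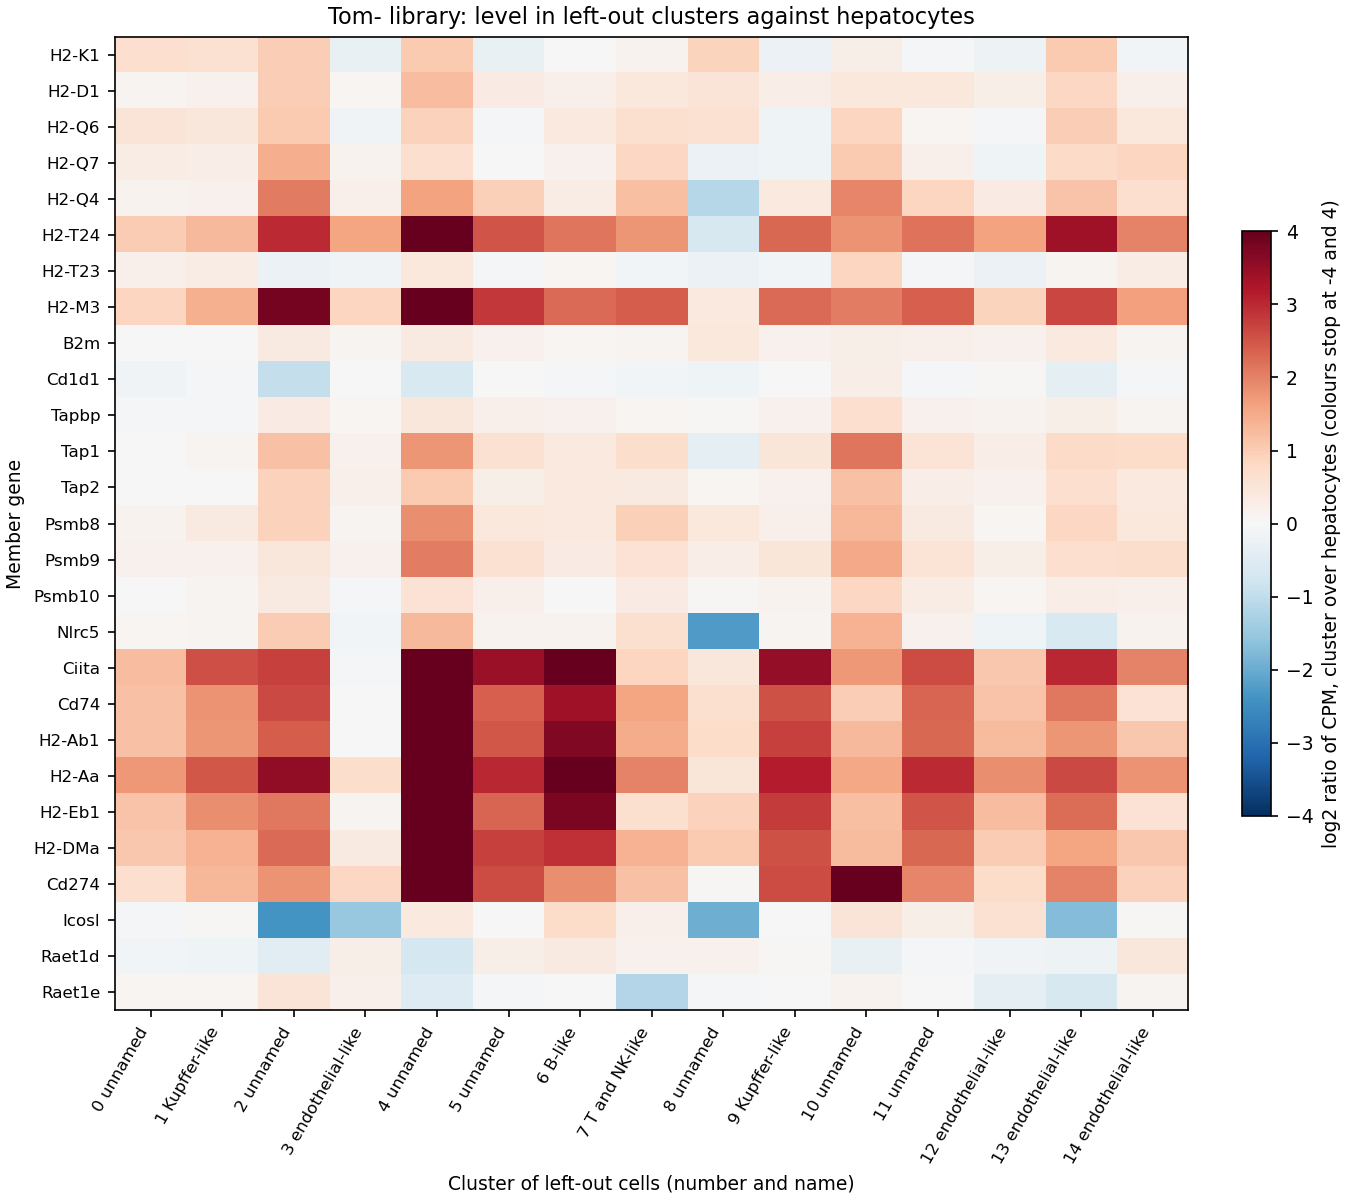
Levels of 27 members (rows) in the 15 clusters of set-aside cells with 50 or more Tom- cells (columns, with number and name), as log2 ratio of CPM against hepatocytes in the Tom- library. Red is higher and blue lower than in hepatocytes, and colours stop at -4 and 4. The darkest column is cluster 4, in which Cd74 reached 662 CPM against 14.1 CPM in hepatocytes.

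Along the lobule, Icosl and H2-Q1 were the members with the steepest profiles. Icosl was at 2.31, 4.83, 13.2, 23.5 and 36.9 CPM from the portal to the central range in the Tom- library, and at 2.53, 4.94, 12.8, 24.8 and 39.3 CPM in the Tom+ library. The 2 libraries gave nearly the same central profile for Icosl, and the ratio between them had an interval including 0 in each of the 5 ranges. Without the hepatocyte clusters made up almost wholly of Tom+ cells, which are named further on, Icosl was lower in Tom+ in the 3 most central ranges, at log2 ratios of -0.155 (-0.29 to -0.02), -0.14 (-0.25 to -0.04) and -0.14 (-0.24 to -0.04). H2-Q1, a class I gene of the Q region without a settled role, was at 0.434, 0.666, 1.19, 2.48 and 6.69 CPM in the Tom- library and at 1.07, 1.54, 3.32, 5.79 and 15 CPM in the Tom+ library. It was higher toward the central vein in both libraries and higher in the Tom+ library in each range.

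Raet1d and H2-Q7 had the opposite profile. Raet1d was at 24.7, 30.4, 28.4, 21.7 and 10.9 CPM in the Tom- library and at 23.8, 23.96, 25.4, 22.5 and 9.65 CPM in the Tom+ library, lowest in the most central range of both. H2-Q7 was at 33.0, 33.1, 26.8, 22.3 and 21.1 CPM in the Tom- library and at 37.6, 34.5, 27.8, 22.7 and 21.7 CPM in the Tom+ library. H2-K1 varied less, in the Tom+ library (922, 963, 869, 859 and 926 CPM) and in the Tom- library (667, 702, 645, 673 and 778 CPM).

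**Figure D2:**
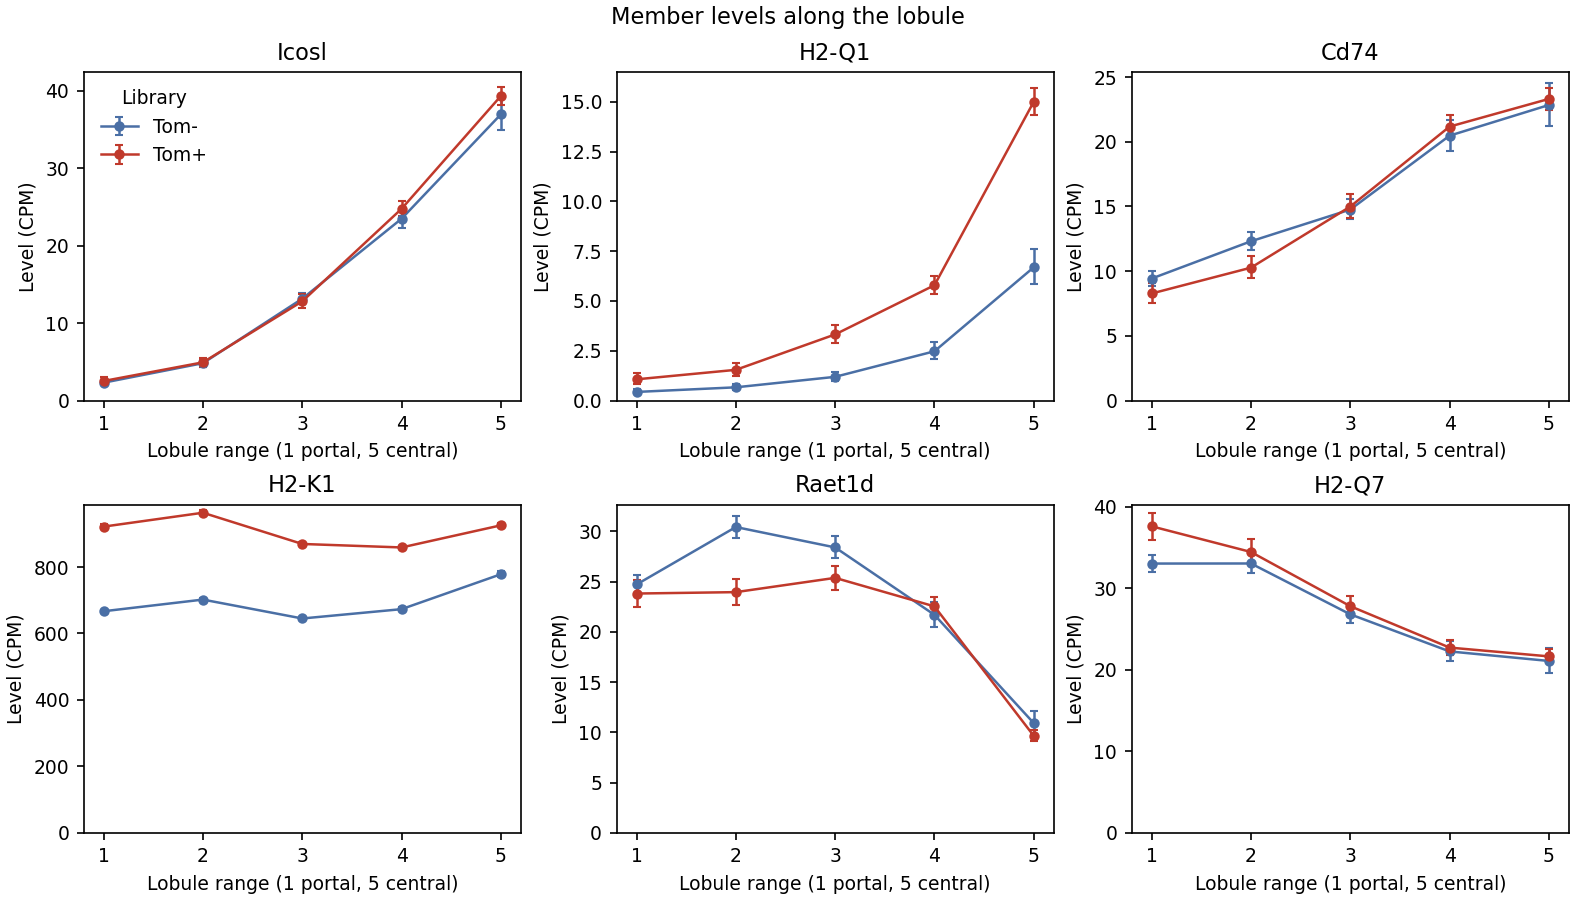
Level (CPM, from 0) of 6 members in 5 ranges of the lobule score, from portal (1) to central (5), in the Tom- (blue) and Tom+ (red) libraries, with exact 95% Poisson intervals as bars. Icosl, H2-Q1 and Cd74 were higher toward the central range, Raet1d and H2-Q7 lower, and H2-K1 was higher in Tom+ in all 5 ranges.

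Counted between zones, 7 of 28 members above the minimum were at least 1.5-fold higher in zone 3-like than in zone 1-like cells of the Tom- library (Icosl, H2-Q1, Cd74, H2-Ab1, H2-Aa, H2-Eb1 and Cd274) and 3 were lower (Raet1d, Raet1e and H2-Q7). Over all genes tested, 9.27% were higher and 5.17% lower by that rule. In the Tom+ library 6 of 27 were higher, the genes just named without H2-Aa (which was below the minimum there), and Raet1d, Raet1e and H2-Q7 were again lower, against 11.4% and 4.98% of all genes. The median log2 ratio of zone 3-like over zone 1-like was 0.19 over these members and 0.11 over all genes in the Tom- library, and 0.10 and 0.18 in the Tom+ library. Icosl had a log2 ratio of 2.98 (2.86 to 3.09) in Tom- and 3.13 (2.99 to 3.27) in Tom+, and H2-Q1 one of 3.17 (2.86 to 3.49) and 3.42 (3.17 to 3.69). Beside the class II genes stand the markers of other cells, given from zone 1-like to zone 3-like cells. Stellate markers summed to 54.8 and 107 CPM in Tom- and 44.7 and 94.5 CPM in Tom+ (7 and 8 of 12 were 1.5-fold higher). Kupffer markers summed to 208 and 250 CPM and 156 and 199 CPM (2 of 12 in each, with Marco lower in Tom+). Endothelial markers were not higher, at 87.9 and 84.0 CPM in Tom- and 71.5 and 64.5 CPM in Tom+. Cholangiocyte markers were lower, at 26.7 and 13.0 CPM and 25.7 and 14.3 CPM. Cd74 was at 21.6 CPM in zone 3-like and 10.1 CPM in zone 1-like Tom- cells (log2 ratio 1.10, 1.00 to 1.21), and in the Tom- cells with few other-cell markers the ratio was 0.77. In Tom+ it was 1.27, and 1.22 in such cells. H2-Eb1 went from 1.11 to 0.84 in Tom- and from 0.92 to 0.46 in Tom+, and H2-Ab1 from 0.92 to 0.52 and from 1.04 to 0.66. H2-Aa, with 108 and 67 UMIs in zone 1-like and zone 3-like Tom- cells, went from 1.203 (0.74 to 1.66) to -0.11 in Tom- and from 0.91 to 0.76 in Tom+. For Icosl the ratio was 3.12 and for H2-Q1 2.87 in the Tom- cells with few other-cell markers.

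Of the class I machinery, no member was 1.5-fold apart between zones. The log2 ratios of zone 3-like over zone 1-like were 0.34 (0.28 to 0.39) in Tom- and 0.32 (0.27 to 0.37) in Tom+ for Psmb10, and 0.19 in both for Tapbp. Nlrc5 was lower in zone 3-like cells, at -0.30 (-0.36 to -0.24) and -0.12 (-0.16 to -0.07), as was Cd1d1, at -0.13 and -0.09. H2-D1 was at 0.18 (0.13 to 0.23) and 0.25 (0.20 to 0.29). Some class I genes had small ratios of unequal sign in the 2 libraries: H2-K1 was at 0.08 in Tom- and -0.07 in Tom+, H2-Q6 at 0.06 and -0.07, Tap2 at 0.09 and -0.02, and Psmb9 at 0.17 and -0.05. Above 0 in both libraries, B2m was at 0.23 and 0.07, Tap1 at 0.19 and 0.07, Psmb8 at 0.19 and 0.13, and H2-Ke6 at 0.29 and 0.28. With median-of-ratios scaling in place of CPM, the ratios of B2m, Tap1 and Psmb8 in Tom+ and those of H2-K1, H2-Q6 and Tap2 in Tom- were below 0. Below the minimum of 1 CPM, Ciita (1.79 and 1.52) and H2-Q2 (1.77 and 2.64) were also higher in zone 3-like cells.

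Between the fractions, most members differed little, and H2-Q1, Icosl and H2-K1 stood out. In all hepatocytes, 2 of 27 members above the minimum were at least 1.5-fold higher in Tom+ than in Tom- (H2-Q1 and Icosl) and none was 1.5-fold lower, against 2.6% of all genes higher and 0.869% lower. In zone 3-like cells it was 1 of 28 (H2-Q1) and none lower, against 1.44% and 0.714%. In zone 1-like cells it was 1 of 27 (H2-Q1) and none lower, against 0.735% and 0.573%. The median log2 ratio of the members was -0.03 in all hepatocytes, -0.05 in zone 3-like cells and -0.05 in zone 1-like ones, beside 0.04, 0.04 and -0.02 over all genes.

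H2-Q1 had 587 UMIs in Tom- hepatocytes (1.49 CPM) and 2739 in Tom+ hepatocytes (6.90 CPM), and its log2 ratio was 2.21 (2.08 to 2.34). Among zone 3-like cells it was at 5.05 and 13.4 CPM (1.41, 1.24 to 1.59), and in zone 1-like cells at 0.562 and 1.25 CPM (1.16, 0.79 to 1.53). Much of this lay in hepatocyte cluster 8, a zone 3-like cluster led by Snhg11, Ces2c and Dbp with 32 Tom- and 1483 Tom+ cells, where H2-Q1 was at 11.0 and 25.1 CPM. Without the 3 clusters made up almost wholly of Tom+ cells (cluster 8, cluster 11 with 37 Tom- and 501 Tom+ cells, and cluster 12 with 1 and 20), a set chosen after the data had been seen,, the log2 ratio was 1.35 in all hepatocytes and 0.53 in zone 3-like cells, so that no member was 1.5-fold higher there. In the other zone 3-like clusters H2-Q1 was at 6.68 and 9.18 CPM (cluster 0, log2 ratio 0.46, 0.20 to 0.73) and 3.88 and 4.31 CPM (cluster 4, 0.15, -0.17 to 0.48). Without those 3 clusters, the ratio along the lobule was 0.99, 1.12, 1.25, 0.18 and 0.31 from the portal to the central range. H2-Q2, its closest relative among the members, was under the minimum of 1 CPM, at 0.262 CPM in Tom- and 0.483 CPM in Tom+ (0.88, 0.53 to 1.24).

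Icosl was at 11.5 CPM in Tom- and 21.3 CPM in Tom+ hepatocytes (log2 ratio 0.89, 0.84 to 0.95), but nearly level within a zone. Inside zone 3-like clusters it was at 32.9 and 36.1 CPM (0.13, 0.06 to 0.21), and in zone 1-like cells at 4.18 and 4.14 CPM (-0.02, -0.18 to 0.15). Without the clusters made up almost wholly of Tom+ cells, its zone 3-like ratio was -0.09. With each range of the lobule given equal weight, the ratio over all hepatocytes was 0.06. The Tom- library held more zone 1-like and the Tom+ library more zone 3-like cells, as counted above. Zone 3-like cells came from hepatocyte clusters 0, 4 and 8, with 811, 844 and 32 cells in the Tom- library and 1830, 1130 and 1483 cells in the Tom+ library.

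H2-K1 was at 680.5 CPM in Tom- and 904 CPM in Tom+ hepatocytes (log2 ratio 0.41, 0.40 to 0.42), below the 1.5-fold limit but in the same direction in each class. It was at 716 and 900 CPM in zone 3-like cells (0.33, 0.31 to 0.35) and at 677 and 946 CPM in zone 1-like cells (0.48, 0.47 to 0.50). From the portal to the central range the ratio was 0.47, 0.46, 0.43, 0.35 and 0.25. The other class I chains differed less: H2-D1 was at 68.6 and 73.4 CPM (0.10), H2-Q6 at 109 and 117 CPM (0.10), B2m at 145 and 157 CPM (0.11) and H2-Q7 at 29.0 and 26.9 CPM (-0.11). For zone 3-like cells these ratios were 0.09 for H2-D1, 0.04 for H2-Q6, -0.04 for B2m and 0.13 for H2-Q7. In zone 1-like cells they were 0.03, 0.17, 0.12 and 0.14. Without the clusters made up almost wholly of Tom+ cells, they were 0.06, 0.001, 0.05 and -0.13 in zone 3-like cells.

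The machinery of peptide supply differed little, mostly toward lower levels in Tom+. Tapbp was at 189 CPM in Tom- and 172 CPM in Tom+ hepatocytes (log2 ratio -0.14, -0.15 to -0.12), with a ratio of -0.20 in zone 3-like cells and -0.21 in zone 1-like ones. Tap1 was at 34.0 and 30.9 CPM (-0.14), with -0.29 and -0.17 in the same classes. Tap2 was at 41.8 and 40.4 CPM (-0.05), Psmb8 at 28.0 and 26.3 CPM (-0.09), Psmb9 at 19.2 and 17.9 CPM (-0.10) and Psmb10 at 52.0 and 52.7 CPM (0.02). Within zone 3-like cells these 4 were at -0.12, -0.19, -0.23 and -0.11, and in zone 1-like cells at -0.01, -0.12, -0.02 and -0.09. Nlrc5 was at 56.3 and 55.2 CPM (-0.03), at 0.16 in zone 3-like cells and at -0.02 in zone 1-like ones. Without the clusters made up almost wholly of Tom+ cells, Nlrc5 was at -0.018 in zone 3-like cells.

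Of the molecules read by natural killer, natural killer T and T cells, Raet1d was at 25.4 CPM in Tom- and 19.5 CPM in Tom+ hepatocytes (-0.38, -0.42 to -0.34), with a ratio of -0.20 in either zone class. The Qa-1 gene H2-T23, whose product is read by the inhibitory receptor NKG2A, was at 7.66 and 8.08 CPM (0.08, 0.01 to 0.15). Cd1d1 was at 225 and 200 CPM (-0.17, -0.18 to -0.15), at -0.06 in zone 3-like cells and -0.11 in zone 1-like ones. Without the clusters made up almost wholly of Tom+ cells, Cd1d1 was at -0.24 in zone 3-like cells. Cd74 was at 14.1 and 17.5 CPM (0.31, 0.26 to 0.36), at 0.02 in zone 3-like cells (0.35 in those with few other-cell markers) and -0.15 in zone 1-like ones, and -0.03 with equal weight over the ranges of the lobule. H2-Ke6 was at 122 and 120 CPM (-0.03), at -0.14 and -0.12 in the 2 classes. Among the members under 10 CPM in zone 1-like cells, H2-DMb1 was 1.5-fold apart with an interval excluding 0, with 56 UMIs in Tom- (0.260 CPM) and 12 in Tom+ (0.113 CPM) and a log2 ratio of -1.201 (-2.24 to -0.28). The plot of Tom+ against Tom- levels shows most members lying along the line of equal levels, with H2-Q1 and Icosl apart from it in all hepatocytes and H2-Q1 in zone 3-like cells.

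**Figure D3:**
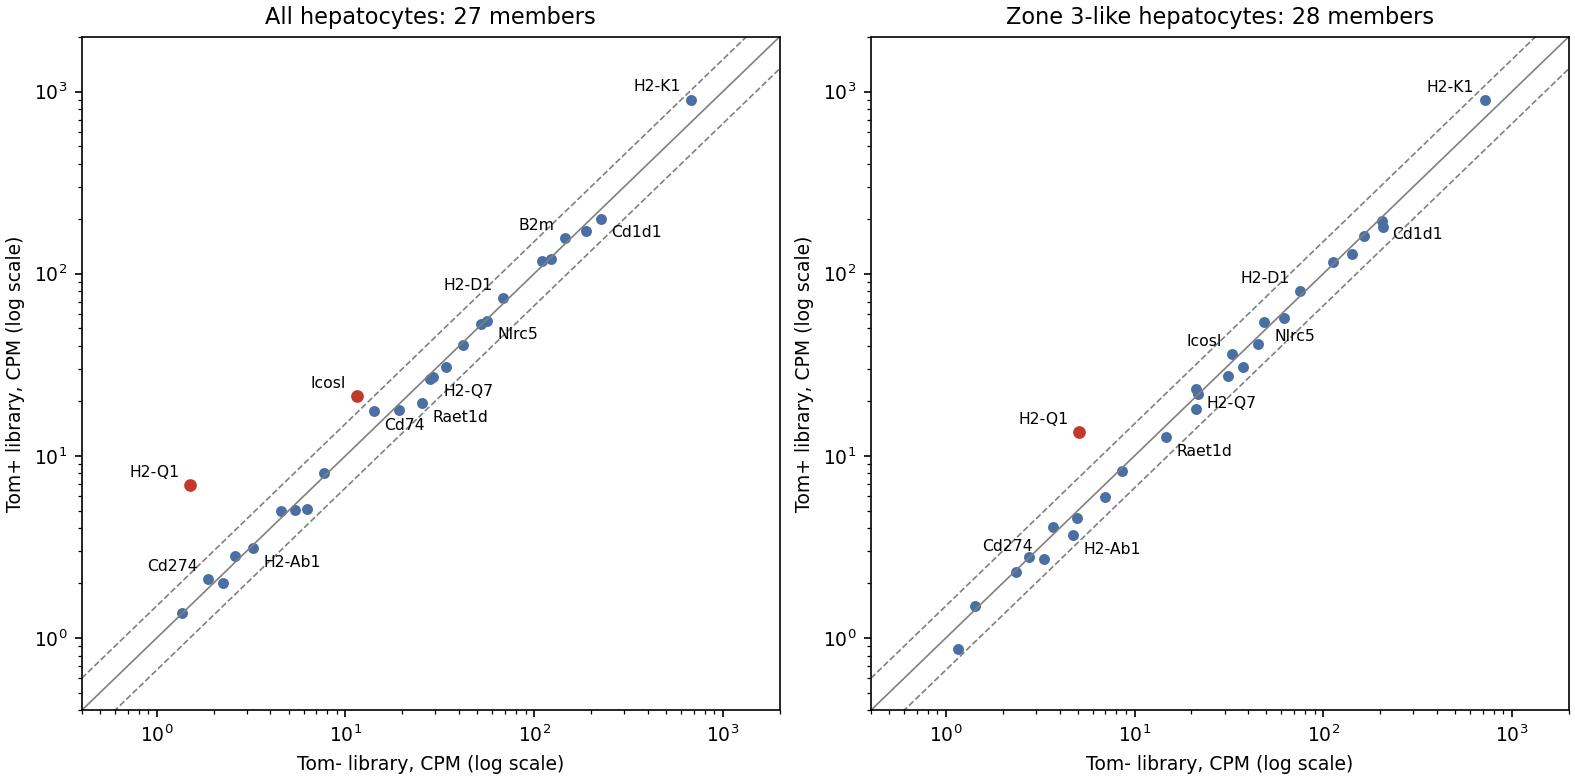
Level of each member above the minimum in the Tom+ library (vertical, CPM, log scale) against the Tom- library (horizontal, CPM, log scale), in all hepatocytes (left, 27 members) and zone 3-like hepatocytes (right, 28 members). The solid line marks equal levels, dashed lines 1.5-fold, and red points the members at least 1.5-fold higher in Tom+: H2-Q1 and Icosl on the left, H2-Q1 on the right.

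The difference in H2-K1 between the libraries moved with the depth of the cells. The hepatocytes of both libraries were placed together in 5 bins of equal cell number by their UMI totals (3911 to 20239, to 29124, to 38894, to 54171 and to 99975 UMIs), a division chosen after the data had been seen. From the shallowest to the deepest bin, a Tom- cell held on average 14.7, 24.02, 27.5, 27.6 and 29 UMIs of H2-K1, and a Tom+ cell 14.5, 26.2, 35.3, 43.3 and 55.1. In the Tom- library the UMIs of H2-K1 per cell were nearly level over the 3 deepest bins, and in the Tom+ library they were higher in each deeper bin. As CPM the levels were 1018, 971, 813, 604 and 423 in Tom- and 1042, 1063, 1042, 946 and 771 in Tom+. The log2 ratio of Tom+ over Tom- was 0.03 (0.01 to 0.06), 0.13 (0.11 to 0.15), 0.36 (0.34 to 0.37), 0.65 (0.63 to 0.66) and 0.86 (0.85 to 0.88).

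The same order was seen inside each zone. In zone 3-like cells the ratio of H2-K1 was 0.06 in the shallowest and 0.78 in the deepest bin, in zone 2-like cells 0.09 and 0.90, and in zone 1-like cells 0.11 and 0.91. The other class I chains did not share it to that extent. H2-D1 had ratios of 0.06, 0.08, 0.06, 0.05 and 0.16 over the 5 bins, B2m of 0.17, 0.16, 0.03, 0.05 and 0.09, and H2-Q6 of -0.05, -0.03, 0.13, 0.26 and 0.29. From the shallowest to the deepest bin, the log2 change of CPM for H2-K1 was -1.27 in Tom- and -0.44 in Tom+, against a median over all genes of -0.22 and -0.18. The difference between these changes, 0.83 for H2-K1, was larger in 50 of the 7834 genes at 10 CPM or more. What sets this relation to depth was not tested. With the CPM of the 5 bins averaged at equal weight in each library, the log2 ratio of H2-K1 was 0.35. The ratio of Icosl ranged from 0.89 to 0.97 over the 5 bins. That of H2-Q1 was 2.24, 1.94, 2.10, 2.07 and 2.69 (2.42 to 2.97 in the deepest bin), highest in the deepest bin without an even trend over the others.

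**Figure D4:**
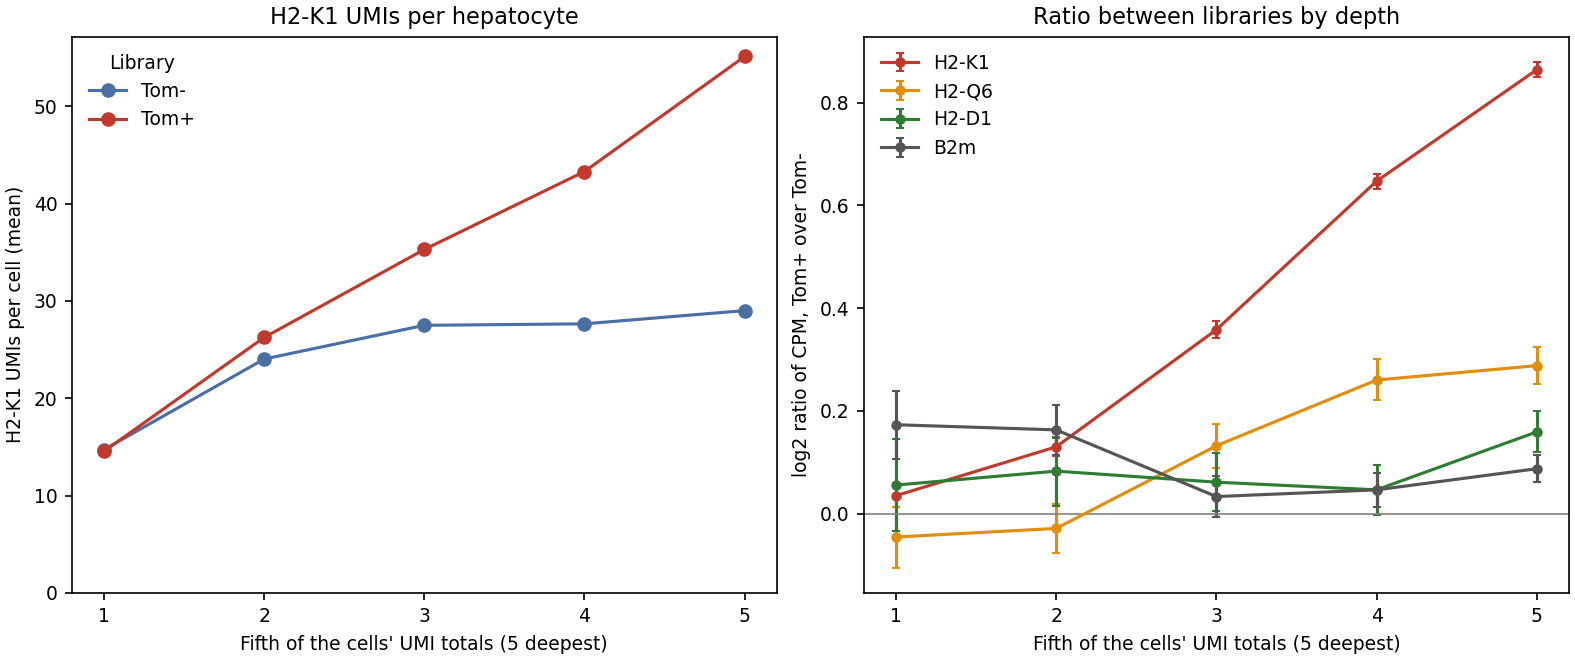
Left, mean UMIs of H2-K1 per hepatocyte in 5 bins of equal cell number by the cells' UMI totals (5 deepest), for the Tom- (blue) and Tom+ (red) libraries. Right, log2 ratio of CPM of Tom+ over Tom- in the same bins for H2-K1, H2-Q6, H2-D1 and B2m with exact 95% intervals, where H2-K1 goes from 0.03 to 0.86 and B2m from 0.17 to 0.09.

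The pattern of H2-K1 also ran through the clusters. It was higher in Tom+ with an interval excluding 0 in 11 of the 13 hepatocyte clusters, at log2 ratios from 0.09 to 0.67 over all 13, and the ratio was largest in cluster 6 (500 and 797 CPM), which had the highest median depth among the Tom- hepatocyte clusters (54579 UMIs). These 11 include 2 small unnamed clusters with strong markers of other cells: hepatocyte cluster 10 (143 Tom- and 41 Tom+ cells), led by the Kupffer genes Marco and Cd163, with Kupffer markers at 1971 and 2228 CPM, and hepatocyte cluster 9 (50 and 16 cells), led by Dmbt1 and Mmp7, with cholangiocyte markers at 519 and 816 CPM. Neither entered a zone class, and both are in the sums over all hepatocytes. Among the 17 clusters set aside, H2-K1 was higher in Tom+ with an interval excluding 0 in 12. It was lower with such an interval in 2 (clusters 0 and 1, at 1092 and 984 CPM and at 1040 and 927 CPM). Those 2 clusters differed in depth between libraries, with medians of 13510 and 13506 UMIs in Tom- and 31544 and 28333 UMIs in Tom+. B2m was higher in Tom+ with an interval excluding 0 in 9 of the 13 hepatocyte clusters, at ratios with a median of 0.17. By the same rule Tapbp was lower in 8 of the 13 and Cd1d1 in 9 of the 13.

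Within a library, the hepatocyte clusters differed in some members far more than in others. H2-D1 spanned 63.2 to 77.9 CPM over 8 Tom- clusters of hepatocytes, a fold of 1.23 that 10.1% of 8275 genes stayed below. Icosl spanned 2.78 to 39.0 CPM, a fold of 14.0 that 99.4% of genes stayed below. H2-K1 spanned 422 to 923 CPM (2.19-fold, 85.7% of genes below) and Nlrc5 42.0 to 90.3 CPM (2.15-fold, 85.0%). Both H2-K1 and Nlrc5 were highest in cluster 1, a shallow zone 1-like cluster with a median of 23222 UMIs in the Tom- library.

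The genes that work with these members were taken as lists. In all hepatocytes, none of the 7 class I peptide loading genes, the 5 measured class II processing genes and the 12 MHC transcription genes was 1.5-fold apart between Tom+ and Tom-, with medians of -0.04, -0.03 and -0.02 on the log2 scale. Of the 7 measured partners in the proteasome, Psmb1 was higher (42.0 and 63.3 CPM, log2 ratio 0.59) where 2.6% of all genes were, and Psmb5, the standard subunit that Psmb8 replaces, was just under the limit (148 and 218 CPM, 0.56). The median of this list was 0.21, while Psmb8, Psmb9 and Psmb10 were at -0.09, -0.10 and 0.02. Within zone 3-like and zone 1-like cells none of the 7 was past 1.5-fold, with Psmb1 at 0.39 and 0.51, Psmb5 at 0.32 and 0.41 and list medians of 0.12 and 0.14. Of the 15 costimulation and checkpoint genes, 7 were above the minimum in all hepatocytes, and of these Cd276 (B7-H3) was higher in all hepatocytes (3.39 and 7.25 CPM, 1.10), in zone 3-like cells (0.67) and in zone 1-like cells (0.59). None of the ligands of NKG2D and natural killer receptors (2 of 6 measured above the minimum) and none of the other class I-like molecules (3 of 4) was past 1.5-fold in all hepatocytes.

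Interferon response genes lay lower in Tom+ by their median. Set-aside cluster 10, led by interferon-induced genes, is not in the sums of hepatocytes compared here. Of the 24 measured, 1 was 1.5-fold lower in all hepatocytes (Ifit2, 1.46 and 0.869 CPM) and none was higher, with a list median of -0.11, against 0.869% and 2.6% of all genes and their median of 0.04. Markers of other cells were also lower in Tom+, with medians of -0.42 for Kupffer (3 of 12 past 1.5-fold) and -0.30 for endothelial markers (1 of 12), and their part in the interferon genes was not tested. Among zone 1-like cells the list median was -0.14, and Ifit2 was again the 1 gene past 1.5-fold. In zone 3-like cells 3 were lower, Ifit2, Rsad2 and Cxcl10, with a list median of -0.30, against 0.714% of all genes lower. In the cells with few other-cell markers the log2 ratio of Rsad2 turned from -0.62 to 0.19 (2.01 CPM in Tom- and 2.31 CPM in Tom+), while Ifit2 was at -0.68 and Cxcl10 at -1.28. Cxcl10, a chemokine that draws T cells, was at 10.2 CPM in Tom- and 3.86 CPM in Tom+ zone 3-like cells (-1.41, -1.57 to -1.24). It was at 1.75 and 2.40 CPM in zone 1-like cells (0.46), and at 1.67 and 1.69 CPM (0.01) in those with few other-cell markers. Between zones, 7 of the 24 were higher in zone 3-like Tom- cells, against 9.27% of all genes, among them Cxcl9 (15.2 and 46.1 CPM from zone 1-like to zone 3-like) and the guanylate-binding gene Gbp2 (6.75 and 14.2 CPM). In the Tom- cells with few other-cell markers Gbp2 was at 6.56 and 8.32 CPM, under 1.5-fold. In the Tom+ library 4 of 23 above the minimum were higher and Gbp3 was lower, against 11.4% and 4.98% of all genes. Of the other lists, the loading chaperones Calr and Pdia3 were at least 1.5-fold lower in zone 3-like Tom- cells (98.3 and 62.9 CPM, and 232 and 150 CPM, from zone 1-like to zone 3-like), while neither passed 1.5-fold in Tom+ (log2 ratios -0.58 and -0.44). By the same rule Psmb5, Nfyb, Cd276 and Vtcn1 were higher in zone 3-like cells of both libraries. Psmb1 was higher there in Tom- only, and Clec2h was lower in both libraries. Ctss, a protease that trims the invariant chain and is known to be high in macrophages, was higher in zone 3-like cells of both libraries (18.9 and 30.3 CPM in Tom-, 15.2 and 25.8 CPM in Tom+). In the Tom+ cells with few other-cell markers Ctss was at 10.7 and 14.5 CPM, under 1.5-fold, and in such Tom- cells at 11.98 and 18.05 CPM, just over it.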

How the data were processed

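Single hepatocyte libraries of fixed, sorted Tom- and Tom+ cells (10x Flex, probe-based) were processed by the authors with Cell Ranger 7.2.0 on mm10 (submitters' processing notes), and the deposited matrices hold UMI counts per gene and barcode, not normalized. Cells with 2000 to 10000 genes, at most 100000 UMIs and a mitochondrial share of at most 0.05 were kept. Scrublet marked 1 and 0 cells, so it had not worked and no doublet was removed. Clusters (scanpy 1.11.5, leidenalg 0.10.2, 2000 variable genes, 30 components, 20 neighbours, resolution 0.8) were made without the members and the 3 custom features. Clusters with few genes (under 0.75 times the median) or other-cell markers (over 2.5 times) were set aside, and hepatocytes and set-aside cells were clustered again. A name needed 3 markers at 5 CPM and 1.5-fold, and more of its list than any other list had. For zone names and for set-aside clusters of low depth, 1 of these markers also had to be among the top 10 genes. Endothelial-like clusters 3, 12 and 14 and Kupffer-like cluster 9 were named without such a marker in their top 10.

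Counts were summed per library and class and divided by the sum over all genes (CPM). Poisson intervals for levels, conditional intervals for ratios and binomial intervals for shares were exact, at 95%. For the 1.5-fold rule 0.5 UMI was added to both counts. A gene was compared at 1 CPM in either sum and 50 UMIs over both, and counted as higher or lower past 1.5-fold. The calculation was tested on simulated data. Named genes were the members at 10 CPM or more, and those below it 1.5-fold apart with an interval excluding 0. H2-T23 between the fractions and the members without UMIs were named outside this rule. Of the pathway lists, up to 3 genes with the largest ratio at 10 CPM or more could be named. Listed genes below 10 CPM or with smaller ratios were chosen after their values were seen. The members and lists were chosen with earlier results of these data known. Alternatives are given in the closing section.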

Additional observations from a re-analysis of the deposited data

How the results depend on the processing

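No paired analysis was possible because each fraction is 1 library, and for the same reason no sample could be left out. Of the alternatives to the 134 values of summary results, 119 kept the direction and stayed within the limits set for a count or spread, and 15 moved. Of those for single genes, 825 did so, 264 moved further and 27 reversed, most of them near 0. Thinned to 5000 UMIs, 2 members were lower in zone 3-like cells, and in zone 1-like cells 0 were higher and 1 lower. With a minimum of 10 CPM, 1 member was higher in all hepatocytes and 0 in zone 1-like cells, and 2 (Tom-) and 3 (Tom+) in zone 3-like over zone 1-like cells. With a fold of 2, 1 was higher in all hepatocytes and 0 lower between zones in both libraries. Without the 3 Tom+ clusters 0 were higher in zone 3-like cells, and with equal weight over lobule ranges 1 in all hepatocytes. With ranges set within each library, the central over portal ratio was 0.17 for H2-K1 in Tom-, and 0.11 and 0.096 for B2m in Tom- and Tom+.

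Reversed log2 ratios were as follows, and the cause was not tested. With the members kept in the clustering, B2m was at 0.0036 in zone 3-like cells. At resolution 0.4, Cd1d1 was at 0.0026 in zone 3-like cells, and zone 3-like over zone 1-like in Tom+ was -0.00945 for B2m, 0.057 for Nlrc5 and 0.0091 for H2-Q6. Thinned, H2-Ke6 was at 0.0028 in all hepatocytes, Cd74 at 0.069 in zone 1-like cells and H2-Q6 at -0.000389 between zones in Tom-. As a mean over cells, H2-Ke6 was at 0.0010. Without the 3 Tom+ clusters, Tap2 was at 0.00089 in all hepatocytes, and in zone 3-like cells B2m was at 0.050, Icosl at -0.090, Nlrc5 at -0.018 and H2-Q7 at -0.13. With median-of-ratios scaling, H2-Q6 was at -0.0012 in zone 3-like cells, between zones in Tom- H2-K1 was at -0.029, Tap2 at -0.016 and H2-Q6 at -0.049, and in Tom+ B2m was at -0.11, Tap1 at -0.11 and Psmb8 at -0.054. With score terciles in place of clusters, B2m was at 0.012 in zone 3-like cells and Tap2 at -0.020 between zones in Tom-. With equal weight over lobule ranges, Nlrc5 was at 0.029, H2-Q7 at 0.083 and Cd74 at -0.033 in all hepatocytes, and with equal weight over depth bins H2-Ke6 was at 0.000509. The settings without the 3 Tom+ clusters and with equal weight over depth bins were chosen after seeing the data.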
